A study of Homo sapiens with 12 samples.

Results

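The genes described here are the long intergenic noncoding RNA genes of the count table, known by the symbol LINC and a number. They were chosen by their name and by their counts: every row whose gene name was LINC followed by digits alone was taken, and a gene was kept when its counts summed to at least 200 over the 12 libraries. The table of 60448 genes listed 975 such rows, of which 466 had no count in any library and 364 had between 1 and 199 counts. A total of 144 LINC genes is described, and 1 further gene that met the rule is not reported here. The members were thus selected on their summed counts, and a gene near the limit could be kept through the group in which it was high. Of the 144 genes, 120 had at least 50 counts over the 3 control libraries.

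RNA sequencing had been done on 786-O cells, an established line from a human clear cell renal cell carcinoma (ccRCC) in which the VHL tumor suppressor is lost. All cells had been transiently transfected with small interfering RNA (siRNA), double-stranded RNA that directs the degradation of a matching mRNA. There were 4 groups of 3 libraries: a control siRNA (siNC), an siRNA against GABPA (siGABPA), an siRNA against GPD1L (siGPD1L) and an siRNA against BRD9 (siBRD9). The sample labels gave DMEM with serum as the medium, whereas the study's methods gave RPMI-1640. The study's text did not describe the siGPD1L and siBRD9 groups, and the dose, the time after transfection and the siRNA sequence used for the sequenced cells were not given in the sources used here. Each group rests on 1 cell line and, as far as the labels say, on 1 siRNA treatment, so an effect of the target and an effect of the siRNA itself cannot be told apart. The study describes the RNA sequencing of GABPA-depleted cells as coming from independent experiments, 3 in number, while neither the labels nor the paper say this of the siGPD1L and siBRD9 libraries, for which p-values may then measure only the spread between these libraries.

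Long noncoding RNAs are transcripts made by RNA polymerase II, usually capped and spliced like mRNA, that were annotated without a protein product. Many are made at low levels and in few cell types, stay in the nucleus and are removed quickly by nuclear RNA decay, while others such as NORAD are abundant in the cytoplasm. The LINC symbols were given to genes between protein-coding genes whose function was unknown at the time, and some were later renamed when a function or a small protein was found. GABPA is the DNA-binding subunit of GABP, an ETS family transcription factor that binds near the starts of many housekeeping genes. GPD1L is a glycerol-3-phosphate dehydrogenase-like enzyme, and BRD9 is a bromodomain subunit of the noncanonical BAF chromatin remodeling complex.

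The targeted genes were first examined in every library. Levels are given as CPM, the counts of a gene per 1000000 counts of its library, scaled with the TMM method, which takes most genes as unchanged. GABPA was at 44.3, 51.1 and 42.7 CPM in siNC and 17.0, 14.4 and 15.4 in siGABPA, with 25.02, 26.1 and 25.8 in siGPD1L and 25.3, 25.8 and 30.4 in siBRD9. GPD1L was at 18.99, 19.3 and 20.2 CPM in siNC and at 6.54, 5.94 and 7.503 in siGPD1L, while BRD9 was at 98.3, 101 and 102 CPM in siNC and at 23.2, 24.6 and 27.7 in siBRD9. Each target was lowest in the group named for it, with no overlap. The log2 fold changes against siNC were -1.57 ± 0.08 (SE) for GABPA, -1.56 ± 0.09 for GPD1L and -1.99 ± 0.06 for BRD9 by edgeR's quasi-likelihood test, and the false discovery rates (FDR) were 2.4e-12, 2.8e-12 and 1.6e-16. A gene was called when its FDR was below 0.05 and its fold change above 1.5, and ± gives the SE of the fit wherever a log2 fold change is given. By this rule GABPA was also called lower in siGPD1L (-0.85 ± 0.06) and in siBRD9 (-0.75 ± 0.07), so these groups do not have GABPA at its control level.

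The labelled cell type was checked with marker genes. PAX8, the renal lineage factor of ccRCC, had between 3830 and 6066 counts per library. Of 9 markers of the renal line, 8 were tested in each comparison with siNC. EPAS1, which encodes HIF2α, and CA12, a carbonic anhydrase, were called higher in all 3 knockdown groups, and NNMT, a nicotinamide methyltransferase, and CDH6, a kidney cadherin, were called lower in all 3. EPAS1 had 665 to 813 counts in siNC and 2065 to 3462 in the knockdown libraries. CDH6 had 3931 to 4252 counts in siNC and 1080 to 3569 in the knockdown libraries, with log2 fold changes of -0.75 ± 0.05 in siGABPA, -1.97 ± 0.05 in siGPD1L and -1.76 ± 0.06 in siBRD9. VIM, the filament protein vimentin, was called lower in siGABPA alone (-1.06 ± 0.03), LRP2 had at most 2 counts, and the medians of the list were -0.05, -0.27 and -0.11. The defining markers of other cells were near 0: PTPRC of leukocytes had at most 1 count, CDH5 of endothelium at most 1, DES of muscle at most 3, NPHS1 of podocytes 0 and ALB of liver at most 6. PECAM1 had 0 counts in siNC and up to 9 elsewhere.

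The word intergenic holds for most, not all, of the 144 genes. In GENCODE release 29 on hg38, 142 were found by identifier: 98 were of the type lincRNA, 13 processed transcripts, 12 antisense, 6 transcribed unprocessed pseudogenes, 2 transcribed processed pseudogenes, 2 bidirectional promoter lncRNAs and 1 sense overlapping. The other 8 were annotated as protein-coding. Between gene bodies, 115 did not overlap a protein-coding gene, with a median distance of 20704 bases to the nearest, and 27 did, of which 12 lay on the same strand and 21 shared exon sequence. A protein-coding gene started on the opposite strand within 1000 bases of 16 LINC genes. The strand setting of the counting was not given in the sources used here, so reads of an overlapping or antisense gene cannot be told apart from those of the LINC gene. The median summed exon length was 3177.5 bases, and 18 genes had a single exon.

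The starts of 5 LINC genes are shown because their levels, given further on, differed between the groups, and that of a sixth, LINC00667, because it faces LINC00526. Each is the window from 250 bases before to 50 bases after the RefSeq start, on GRCh38.p14, written 5′ to 3′ on the strand of the gene. Capitals mark CCGGAAGT or its reverse complement ACTTCCGG, the ETS core GGAA with the flanks that GABPA is known to prefer, searched on both strands. LINC00526 (chr18:5237980-5238279, minus strand) and LINC00667 (chr18:5237850-5238149, plus strand) are divergent neighbours, and their windows hold the same 8 bases, chr18:5238069-5238076, read from opposite strands. LINC00657, now NORAD, is at chr20:36050911-36051210 on the minus strand. LINC01021, now PURPL, is at chr5:27472042-27472341 on the plus strand. LINC00641 is at chr14:21206851-21207150 and LINC01116 at chr2:176637560-176637859, both on the minus strand.
LINC00526: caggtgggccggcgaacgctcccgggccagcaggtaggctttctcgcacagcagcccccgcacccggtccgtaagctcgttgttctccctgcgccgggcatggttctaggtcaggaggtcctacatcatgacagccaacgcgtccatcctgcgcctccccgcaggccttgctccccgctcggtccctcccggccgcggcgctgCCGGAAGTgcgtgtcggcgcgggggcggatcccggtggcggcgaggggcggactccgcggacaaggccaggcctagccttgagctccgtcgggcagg
LINC00667: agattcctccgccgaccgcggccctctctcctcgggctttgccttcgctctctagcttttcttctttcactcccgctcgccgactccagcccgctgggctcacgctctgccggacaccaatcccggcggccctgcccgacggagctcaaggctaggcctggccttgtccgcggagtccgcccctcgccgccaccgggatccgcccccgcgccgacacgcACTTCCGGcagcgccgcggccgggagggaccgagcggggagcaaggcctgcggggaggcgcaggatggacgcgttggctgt
LINC00657: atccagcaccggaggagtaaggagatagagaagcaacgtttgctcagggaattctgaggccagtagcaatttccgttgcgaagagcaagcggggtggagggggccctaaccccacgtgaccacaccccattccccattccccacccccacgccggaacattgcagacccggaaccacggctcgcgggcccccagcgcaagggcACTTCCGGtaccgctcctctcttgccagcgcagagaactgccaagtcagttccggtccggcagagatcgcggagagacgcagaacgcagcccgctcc
LINC01021: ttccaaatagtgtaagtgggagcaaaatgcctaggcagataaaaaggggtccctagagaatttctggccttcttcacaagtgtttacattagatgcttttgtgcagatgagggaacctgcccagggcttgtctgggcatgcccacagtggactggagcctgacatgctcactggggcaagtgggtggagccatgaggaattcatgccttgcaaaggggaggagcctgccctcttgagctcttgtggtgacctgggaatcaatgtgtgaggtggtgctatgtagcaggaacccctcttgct
LINC00641: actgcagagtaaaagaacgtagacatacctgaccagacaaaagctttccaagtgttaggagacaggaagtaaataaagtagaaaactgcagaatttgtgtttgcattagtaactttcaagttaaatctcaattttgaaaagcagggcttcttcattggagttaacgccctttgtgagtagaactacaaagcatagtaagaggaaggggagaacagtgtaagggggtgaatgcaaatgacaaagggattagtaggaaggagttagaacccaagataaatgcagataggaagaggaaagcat
LINC01116: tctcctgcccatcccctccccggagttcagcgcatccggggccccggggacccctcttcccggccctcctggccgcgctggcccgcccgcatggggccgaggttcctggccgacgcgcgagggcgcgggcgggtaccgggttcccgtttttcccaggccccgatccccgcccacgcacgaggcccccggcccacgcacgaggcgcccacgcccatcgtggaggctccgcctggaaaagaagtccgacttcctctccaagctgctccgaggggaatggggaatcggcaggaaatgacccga

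The motif was found in LINC00526, LINC00667 and LINC00657, and was not found in the windows of LINC01021, LINC00641 and LINC01116. A RefSeq window of 300 bases was found for 110 of the 144 genes, and 9 of these (8.18%) held the 8 letters, against 1211 of the 27305 windows of all genes (4.44%). The 9 were LINC00205, LINC00476, LINC00493, LINC00526, LINC00657, LINC00667, LINC00909, LINC01426 and LINC01547, with the pair LINC00526 and LINC00667 holding 1 stretch counted for both. TATAAA, the core of the TATA box, searched on both strands as TATAAA or TTTATA, was in 11 of the 110 windows (10.0%) and in 3264 of all windows (11.95%), and no window of a LINC gene held both motifs. The median GC content was 60.2% in the windows of the LINC genes and 58.3% in all windows, with 39.0% in that of LINC00641. A match is a description of the letters, not a binding site.

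The LINC genes made up a small share of the RNA, and their summed level was higher in each knockdown group than in siNC. It was 1636, 1626 and 1632 CPM in siNC and 2002, 2012 and 2011 in siGABPA, whereas siGPD1L had 1937, 1923 and 1934 and siBRD9 1953, 1956 and 1943. The siGABPA libraries were highest and the siNC libraries lowest, and only siGPD1L and siBRD9 came close to each other. The means were 1631 ± 4.84 (SD, n = 3), 2008 ± 5.40, 1932 ± 7.30 and 1950 ± 6.82. The ratio of the means to siNC was 1.23 in siGABPA, 1.18 in siGPD1L and 1.20 in siBRD9. With total counts alone in place of TMM the ratios were 1.42, 1.33 and 1.32, so the order of siGPD1L and siBRD9 turns with the scaling. Since the sum depends on the genes selected, it is given as a description, and in bulk RNA fewer cells that make an RNA and less of it per cell cannot be told apart.

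A large part of the sum came from LINC00657 (NORAD), a cytoplasmic RNA with repeated binding sites for the PUMILIO proteins. It gave 24.9 to 25.1% of the sum in siNC, 26.0 to 26.3% in siGABPA, 28.7 to 30.3% in siGPD1L and 31.7 to 33.4% in siBRD9. Without it the ratios of the sums to siNC were 1.21, 1.11 and 1.07, so that the siGABPA group stood further from the other knockdown groups. The number of LINC genes at 1 CPM or more was 110 to 112 in siNC, 130 to 133 in siGABPA, 123 to 127 in siGPD1L and 123 to 128 in siBRD9.

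**Figure D1:**
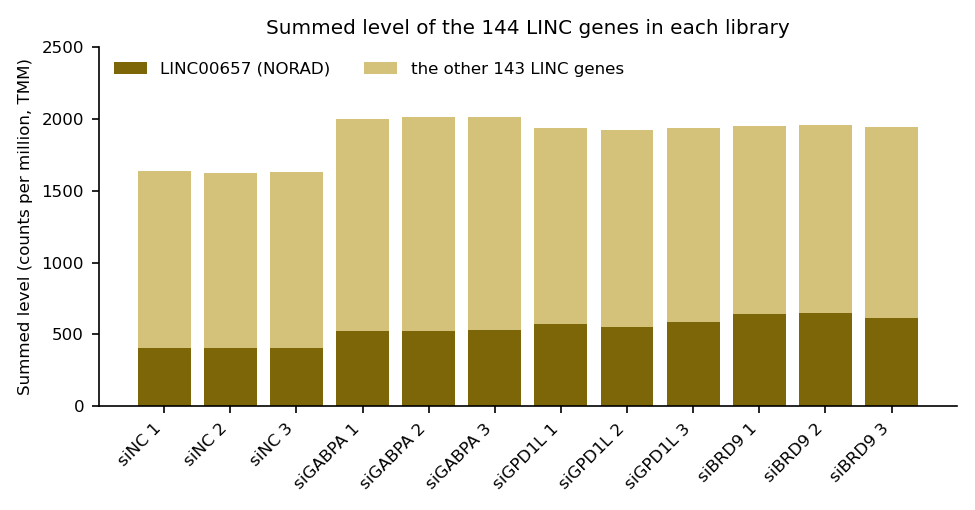
Summed level of the 144 LINC genes in each of the 12 libraries, in CPM scaled with TMM, with the dark part of each bar for LINC00657 (NORAD) and the light part for the other 143 genes. The 3 siNC bars end between 1626 and 1636, and the bars of the other groups between 1923 and 2012.

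Other measures of the libraries moved with this sum. After thinning every library to 19499090 counts, 22607 to 22890 genes had a count in siNC, 23913 to 24284 in siGABPA, 23659 to 23721 in siGPD1L and 23411 to 23529 in siBRD9. Genes of the type lincRNA took 0.340% of all counts in siNC, 0.582% in siGABPA, 0.494% in siGPD1L and 0.455% in siBRD9, while protein-coding genes took 97.8%, 96.9%, 97.3% and 97.2%. The raw depth was 21419987 to 24469305 counts in siNC, 26395629 to 27363062 in siGABPA, 27440715 to 28650340 in siGPD1L and 19499090 to 29999290 in siBRD9. The part of these differences in the results below was not tested.

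The most abundant LINC genes were ranked per exon length. On the scale of CPM per kilobase of exon, averaged over the 4 groups, the 10 highest were LINC00657 (100), LINC00973 (73.5), LINC00998 (61.4), LINC00839 (21.1), LINC01116 (20.7), LINC00958 (19.8), LINC01420 (18.1), LINC01508 (15.2), LINC01604 (12.6) and LINC00674 (11.9). LINC00657 was at 408, 408 and 407 CPM in siNC and 522, 523 and 529 in siGABPA, and at 573, 552 and 586 in siGPD1L and 642, 652 and 615 in siBRD9. The groups did not overlap, and the order from siNC to siBRD9 held for every library. Only its change in siBRD9 was called (log2 fold change 0.66 ± 0.03), with 0.35 ± 0.03 in siGABPA and 0.48 ± 0.03 in siGPD1L below the fold limit.

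LINC00973 (chr3:98981058-98983096, 79369 bases from DCBLD2), the next in level, was at 38.2, 34.1 and 36.8 CPM in siNC and 66.4, 68.9 and 76.3 in siGABPA, with 110, 104 and 105 in siGPD1L and 70.9, 65.9 and 71.5 in siBRD9. It was called higher in all 3 knockdown groups, with log2 fold changes of 0.94 ± 0.06, 1.55 ± 0.05 and 0.95 ± 0.05, and was higher in siGPD1L than in either of the others. LINC01604 (now MINCR, a MYC-induced noncoding RNA) was called higher in siGABPA (0.83 ± 0.07) and LINC00839 was called lower in siBRD9 (-0.72 ± 0.05). LINC00998, LINC00958, LINC01420, LINC01508 and LINC00674 were not called against siNC in any of the 3 knockdown groups.

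The main comparison was siGABPA against siNC, in which GABPA was reduced but not absent. Of the 143 LINC genes tested, 70 (49.0%) were called higher and 8 (5.59%) lower, and LINC00622 was not tested because of low counts. Of all 16140 genes tested, 21.3% were called higher and 15.2% lower. The median log2 fold change of the LINC genes was 0.58, with the middle 50% of them between -0.03 and 1.22, and that of all genes tested was 0.02. A total of 104 LINC genes (72.7%) had a log2 fold change above 0, as did 51.6% of all genes tested. When libraries were scaled by total counts alone, the median of all genes moved to 0.24 and the calls to 4854 higher and 1387 lower, and the LINC genes then split into 82 higher and 3 lower.

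In siGPD1L against siNC, 50 of the 144 LINC genes tested (34.7%) were called higher and 14 (9.72%) lower, against 20.4% and 15.5% of all genes tested. Their median log2 fold change was 0.33, and that of all genes 0.01. In siBRD9 against siNC, 43 of the 143 tested (30.1%) were called higher and 11 (7.69%) lower, against 16.7% and 11.5% of all genes, with medians of 0.28 and 0.01. LINC01611 was not tested in that comparison. With total counts alone, the LINC genes split into 63 higher and 10 lower in siGPD1L and 55 higher and 8 lower in siBRD9, while all genes split into 4196 and 1572 with a median of 0.18, and into 3299 and 1213 with a median of 0.13. These comparisons share the siNC libraries with that of siGABPA, so agreement between them is not read as a result.

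The comparisons between knockdown groups do not use siNC. In siGABPA against siGPD1L, 40 of the 144 LINC genes (27.8%) were called higher and 14 (9.72%) lower, where 8.54% and 6.9% of all genes tested were called. In siGABPA against siBRD9, 44 of the 144 (30.6%) were called higher and 9 (6.25%) lower, where 8.52% and 5.74% of all genes were called. In siGPD1L against siBRD9, 9 of the 143 tested (6.29%) were called higher and 5 (3.497%) lower, where 4.01% and 2.91% of all genes were called, and LINC00607 was not tested. The median log2 fold changes of the LINC genes were 0.25, 0.27 and 0.05, and that of all genes was 0.01 in each. The siGABPA group thus had higher levels of many LINC genes than both other knockdown groups. Of the lincRNA genes outside the 144, 24.7% were called higher in siGABPA against siGPD1L and 28.2% against siBRD9. Of antisense genes, 24.8% and 23.9% were, so these higher levels are not particular to the LINC genes. A gene near the limit could also enter the 144 through its counts in siGABPA, and the part of this was not tested. Between siGPD1L and siBRD9 the fewest LINC genes were called. The same held for all genes, with 652 higher and 472 lower, so this is not particular to the LINC genes. With total counts alone, the LINC genes split into 43 and 11, 50 and 7, and 10 and 5, while all genes split into 1555 and 1014, 1746 and 734, and 747 and 414, with medians of 0.05, 0.09 and 0.04.

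**Figure D2:**
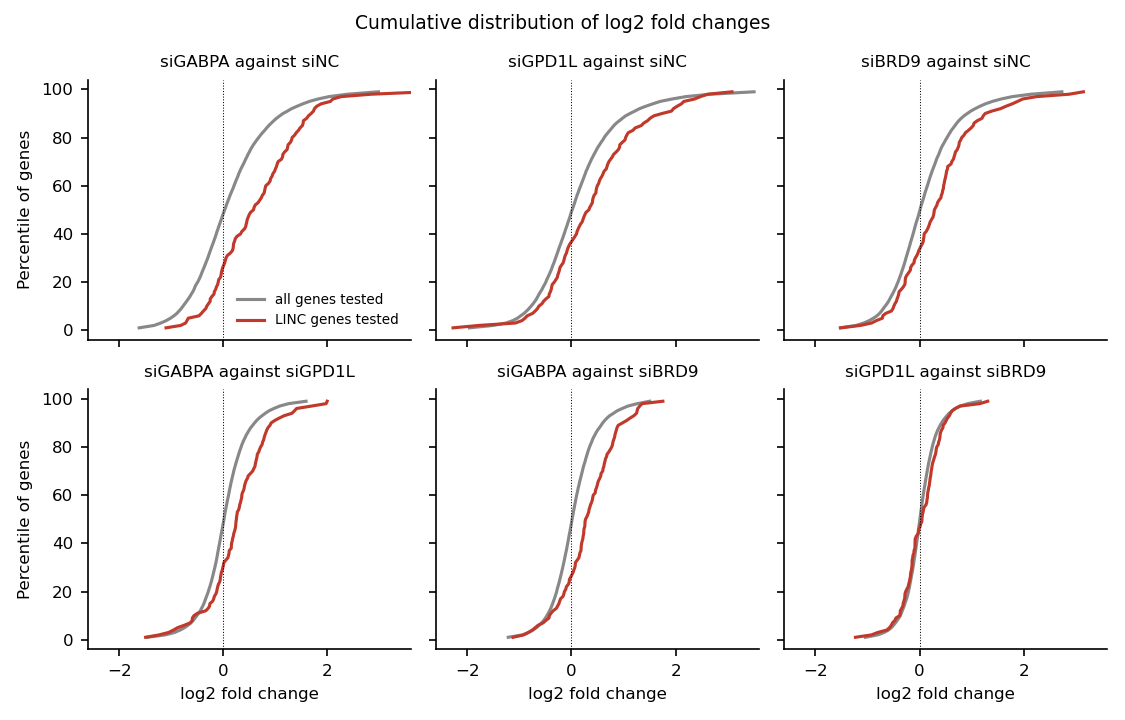
Cumulative distribution of the log2 fold change in each of the 6 comparisons, with the percentile of genes on the vertical axis, the grey line for all genes tested and the red line for the LINC genes tested. The red line lies to the right of the grey one at its middle in every comparison, with medians of 0.58 against 0.02 for siGABPA against siNC and 0.05 against 0.01 for siGPD1L against siBRD9.

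Of the 144 LINC genes, 72 (50%) had their highest mean level in siGABPA, 30 in siNC, 25 in siGPD1L and 17 in siBRD9. Among the 16140 genes tested in siGABPA against siNC, 28.3% were highest in siGABPA, 36.8% in siNC, 21.7% in siGPD1L and 13.2% in siBRD9. The lowest mean was in siNC for 82 LINC genes (56.9%), in siGPD1L for 31, in siBRD9 for 17 and in siGABPA for 14. Among the same 16140 genes the shares were 38.5%, 21.6%, 16.4% and 23.5% in the same order of groups. A gene with few counts in siNC could enter the 144 only through the other groups. This choice favours siNC as the lowest group, so nothing is read from that difference. A gene could likewise enter through siGABPA by being high there, so nothing is read from the share highest in siGABPA. These counts order the group means and do not say that neighbours in that order differ beyond their spread.

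The share of LINC genes called higher was set beside that of other gene types. In siGABPA against siNC, 46.9% of the 704 other lincRNA genes tested were called higher and 8.95% lower, as were 39.6% and 6.96% of the 934 antisense genes. Among protein-coding genes with under 2000 counts over the 12 libraries, 38.3% of 2601 were called higher and 11.3% lower, while above that limit 11.9% of 10058 were called higher and 16.8% lower. Processed pseudogenes went the other way, with 13.0% of 560 called higher and 39.5% lower. In siGPD1L, 33.6% of other lincRNA genes, 27.2% of antisense genes and 37.7% of protein-coding genes under 2000 counts were called higher, beside 34.7% of the LINC genes. In siBRD9 these shares were 25.8%, 22.6% and 32.6%, beside 30.1%. The LINC genes include 51 with 2000 counts or more. Of those under 2000 counts, 56 of 92 (60.9%) were called higher in siGABPA, 37 of 93 (39.8%) in siGPD1L and 33 of 92 (35.9%) in siBRD9, beside 38.3%, 37.7% and 32.6% of the protein-coding genes under that limit. The LINC genes were chosen on the same summed counts, and some could enter only through the knockdown groups, whereas the protein-coding genes had no lower limit of 200 counts. These differences were not tested, and nothing is read from the shares under 2000 counts.

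The LINC genes were also divided by their counts, which are summed over the 12 libraries and so include the change itself. With under 500 counts over the 12 libraries, 17 of 38 were called higher and 3 lower in siGABPA. With 500 to under 2000 counts, 39 of 54 (72.2%) were called higher and 2 lower, with a median log2 fold change of 0.995. With 2000 counts or more, 14 of 51 (27.5%) were called higher and 3 lower, with a median of 0.20. In siGPD1L the counts in these classes were 13 of 39, 24 of 54 and 13 of 51 called higher, and in siBRD9 12 of 38, 21 of 54 and 10 of 51. Called lower were 4, 5 and 5 in siGPD1L and 3, 3 and 5 in siBRD9. Of all genes tested, 21.3%, 20.4% and 16.7% were called higher in the 3 comparisons, and 15.2%, 15.5% and 11.5% lower. The shares of the upper class called higher were 27.5%, 25.5% and 19.6%. Since the classes and the choice of the genes use the same summed counts, no order of the classes is read from these shares.

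A gene with few counts in siNC could enter the 144 only through the other groups. When only the 120 LINC genes with at least 50 counts over the siNC libraries were taken, a choice made after seeing the data, 53 were called higher and 8 lower in siGABPA, 35 higher and 14 lower in siGPD1L, and 29 higher and 11 lower in siBRD9, with medians of 0.45, 0.19 and 0.17. These are 44.2%, 29.2% and 24.2% called higher and 6.67%, 11.7% and 9.17% lower, where 21.3%, 20.4% and 16.7% of all genes tested were called higher and 15.2%, 15.5% and 11.5% lower. The remaining 24 had to be higher outside siNC to be chosen, so nothing is read from their higher calls against siNC. LINC00173, LINC00471, LINC00526, LINC00622, LINC00707, LINC00882, LINC01127, LINC01293 and LINC01426, described further on, are among them. The calls of these 24 are left out of these counts but are part of the 70, 50 and 43 higher calls given for all LINC genes tested. Between the knockdown groups, protein-coding genes under 2000 counts were called higher in siGABPA in 15.5% of cases against siGPD1L and 16.5% against siBRD9, and other lincRNA genes in 24.7% and 28.2%.

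**Figure D3:**
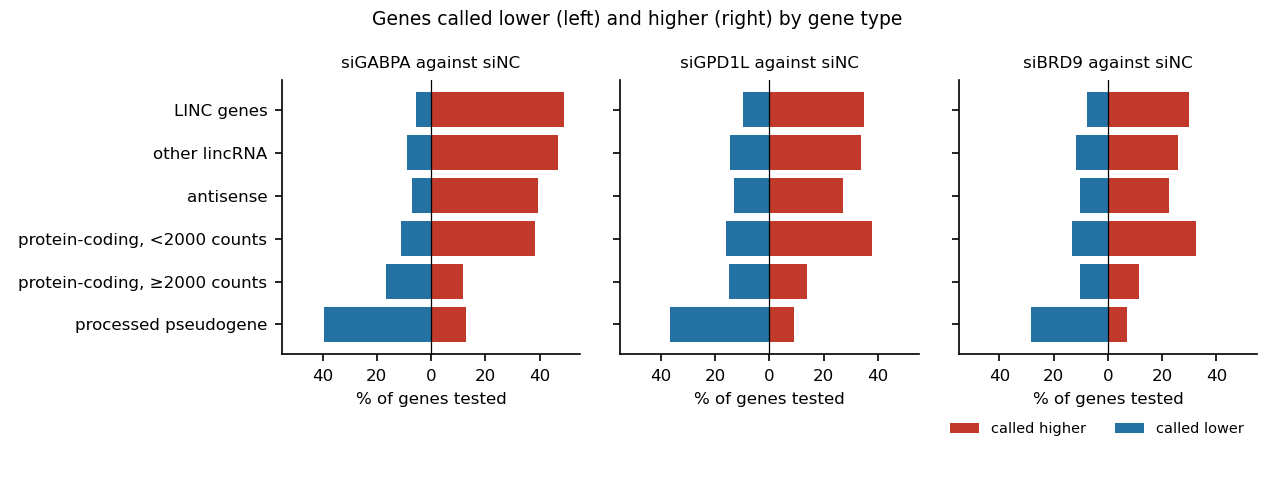
Percent of genes tested that were called lower (left, blue) or higher (right, red) in each knockdown group against siNC, for the LINC genes, other lincRNA genes, antisense genes, protein-coding genes below and above 2000 counts, and processed pseudogenes. For siGABPA the red bar of the LINC genes reaches 49.0% and that of the protein-coding genes above the limit 11.9%.

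LINC01021 had the largest change in siGABPA. It is now named PURPL, is known as a p53-regulated RNA that restrains basal p53, and lies at chr5:27472292-27496401 on hg38. It was at 1.74, 1.95 and 1.21 CPM in siNC (34, 39 and 27 counts), 29.8, 29.3 and 28.1 in siGABPA, whereas siGPD1L had 6.43, 6.99 and 8.45 and siBRD9 5.41, 6.74 and 5.90. The siGABPA libraries stood far above all others, and the siGPD1L and siBRD9 libraries overlapped each other between siNC and siGABPA. The log2 fold change against siNC was 4.15 ± 0.11 in siGABPA (17.7-fold, edgeR FDR 1.4e-15), 2.16 ± 0.18 in siGPD1L and 1.89 ± 0.18 in siBRD9. It was also higher in siGABPA than in siGPD1L (1.99 ± 0.08) and siBRD9 (2.28 ± 0.08). Its 300-base window, shown above, did not hold the ETS letters.

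The next by fold change in siGABPA were near the detection limit in siNC. LINC01127 (chr2:101962056-101987167, 4677 bases from the interleukin 1 decoy receptor gene IL1R2) had 5, 0 and 3 counts in siNC, and was at 2.55, 1.80 and 2.19 CPM in siGABPA, and at 0.530, 0.577 and 0.528 in siGPD1L and 1.76, 1.17 and 1.44 in siBRD9. The log2 fold changes were 4.01 ± 0.44, 2.03 ± 0.56 and 3.47 ± 0.48, all called. IL1R2 itself changed by 0.13 ± 0.09 in siGABPA and 0.21 ± 0.10 in siGPD1L, which were not called, and was called higher in siBRD9 (1.10 ± 0.08). LINC00173 (chr12:116533422-116536518) had 4, 5 and 4 counts in siNC and reached 2.92, 2.79 and 3.16 CPM in siGABPA, with 3.11, 2.31 and 2.04 in siGPD1L and 1.59, 1.62 and 2.61 in siBRD9. The siNC libraries lay below all the others for both genes, with log2 fold changes of LINC00173 of 3.77 ± 0.28, 3.53 ± 0.33 and 3.18 ± 0.37. With so few counts in siNC, LINC01127 and LINC00173 had to be higher elsewhere to be chosen. Nothing is therefore read from their calls against siNC.

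LINC00887 (chr3:194296465-194312803, minus strand) lies 26962 bases from CPN2, which encodes a subunit of carboxypeptidase N. It was at 0.768, 0.851 and 1.30 CPM in siNC and 5.50, 7.39 and 6.04 in siGABPA, whereas siGPD1L had 5.76, 4.58 and 6.69 and siBRD9 8.72, 9.27 and 7.30. The siNC libraries were lowest without overlap, while the 3 knockdown groups lay close to each other. The log2 fold changes were 2.66 ± 0.20, 2.52 ± 0.21 and 3.10 ± 0.19. LINC00471 was called higher with 2.32 ± 0.34 in siGABPA, 2.10 ± 0.33 in siGPD1L and 1.65 ± 0.34 in siBRD9, from 14, 7 and 6 counts in siNC. With these counts LINC00471 had to be higher outside siNC to be chosen, so nothing is read from its calls.

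LINC00641 was the LINC gene with the largest decrease in siGABPA. It lies at chr14:21200079-21206900 on the minus strand, 2236 bases beyond the end of HNRNPC, the gene of a nuclear pre-mRNA-binding protein, on the same strand. It was at 20.9, 19.7 and 19.6 CPM in siNC and 4.58, 4.39 and 3.09 in siGABPA, and at 4.67, 5.63 and 4.72 in siGPD1L and 7.56, 6.23 and 7.75 in siBRD9. All knockdown libraries were below all siNC libraries, and the log2 fold changes were -2.33 ± 0.11, -2.002 ± 0.10 and -1.46 ± 0.09 (edgeR FDR 3e-12, 5.75e-14 and 3.1e-11). HNRNPC changed in the same direction by less, -0.63 ± 0.03, -0.55 ± 0.03 and -0.66 ± 0.03, from a mean of 677.6 CPM in siNC to 442.0, 462.7 and 426.1. It was called lower in siGABPA and siBRD9 and was under the fold limit in siGPD1L. Whether transcripts running past the end of HNRNPC add to the counts of LINC00641 was not tested.

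The other 7 LINC genes called lower in siGABPA were LINC01116, LINC01117, LINC00460, LINC00665, LINC00680, LINC00920 and LINC00607. LINC00680 is annotated as a transcribed pseudogene, so reads of near-identical copies may be split, and it was at 4.09, 4.21 and 3.89 CPM in siNC and 2.37, 1.98 and 2.84 in siGABPA, with 0.813, 2.07 and 0.740 in siGPD1L and 1.53, 1.22 and 1.31 in siBRD9. The siNC libraries were above all others, and in siGPD1L the second library stood apart from the first and the third. The log2 fold changes were -0.77 ± 0.17, -1.74 ± 0.27 and -1.56 ± 0.19. LINC00460, an RNA described as a promoter of invasion in several carcinomas, was at 5.83, 5.31 and 5.27 CPM in siNC and at 3.68, 3.11 and 3.16 in siGABPA (-0.73 ± 0.14), with the same fold change in siGPD1L and -0.17 ± 0.15, not called, in siBRD9. LINC00665 was at 30.8, 29.9 and 30.7 CPM in siNC and at 19.1, 18.5 and 19.3 in siGABPA (-0.70 ± 0.06), and missed the fold limit in siGPD1L (-0.56 ± 0.07) and siBRD9 (-0.53 ± 0.07). Under scaling by total counts alone, LINC00460, LINC00607, LINC00665, LINC00680 and LINC01116 kept their direction in siGABPA and were no longer called, which left LINC00641, LINC00920 and LINC01117 of the 8 called lower.

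In siGPD1L some LINC genes stood apart from both other knockdown groups. LINC00707 (chr10:6779549-6879450) was at 0.921, 0.551 and 0.581 CPM in siNC and 1.65, 1.88 and 2.37 in siGABPA, whereas siGPD1L had 7.49, 7.06 and 7.36 and siBRD9 1.16, 1.42 and 0.811. The siGPD1L libraries were far above all others. The log2 fold change against siNC was 3.41 ± 0.19 in siGPD1L, 1.51 ± 0.27 in siGABPA and 0.73 ± 0.33, not called, in siBRD9, and that of siGPD1L against siBRD9 was 2.69 ± 0.17. With its counts in siNC, LINC00707 had to be higher elsewhere to be chosen, so nothing is read from its calls against siNC.

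LINC00704, now MANCR, lies on the same chromosome and was highest in siGPD1L too. It was at 0.665, 1.35 and 0.625 CPM in siNC and 1.27, 2.12 and 1.91 in siGABPA, and at 4.59, 5.09 and 4.05 in siGPD1L and 2.12, 1.93 and 1.94 in siBRD9. The log2 fold change against siNC was 2.38 ± 0.23 in siGPD1L, 1.20 ± 0.28 in siBRD9 and 0.99 ± 0.30 in siGABPA, where 1 siNC library overlapped the siGABPA libraries. LINC00941 (chr12:30755167-30802602), which starts 216 bases from CAPRIN2 on the opposite strand, was at 4.45, 6.41 and 6.48 CPM in siNC and 9.29, 10.1 and 9.75 in siGABPA, with 16.4, 20.9 and 18.5 in siGPD1L and 6.70, 6.43 and 7.88 in siBRD9. It was higher in siGPD1L than in siNC (1.68 ± 0.12), siBRD9 (1.40 ± 0.10) and siGABPA. CAPRIN2, which encodes an RNA-binding protein, was called higher in siGPD1L (0.91 ± 0.04) and siBRD9 (0.59 ± 0.05) and not in siGABPA (0.22 ± 0.04).

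LINC01320 (chr2:33706886-34738231), a gene spread over a long intergenic stretch, was low in siGPD1L and, less so, in siBRD9. It was at 9.21, 10.6 and 7.77 CPM in siNC and 8.02, 9.59 and 9.06 in siGABPA, whereas siGPD1L had 1.34, 1.53 and 1.83 and siBRD9 3.45, 4.97 and 6.31. The siNC and siGABPA libraries overlapped, the siGPD1L libraries were lowest and the siBRD9 libraries lay between. The log2 fold changes against siNC were -0.06 ± 0.11 in siGABPA, -2.55 ± 0.16 in siGPD1L and -0.92 ± 0.17 in siBRD9, and siGABPA was above siGPD1L by 2.50 ± 0.14.

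LINC01411 (chr5:174336295-174532457) moved in opposite directions. It was at 5.37, 5.61 and 5.94 CPM in siNC and 10.5, 11.3 and 12.4 in siGABPA, and at 2.83, 2.48 and 3.42 in siGPD1L and 5.87, 5.62 and 4.82 in siBRD9. It was called higher in siGABPA (0.997 ± 0.10) and lower in siGPD1L (-0.96 ± 0.15), and was not called in siBRD9 (-0.04 ± 0.13). The direct test of siGABPA against siGPD1L gave 1.97 ± 0.12 (edgeR FDR 6e-13). LINC01111 was at 19.96, 19.6 and 21.3 CPM in siNC and 14.0, 16.0 and 16.0 in siGABPA, with 9.12, 9.13 and 9.76 in siGPD1L and 11.4, 9.27 and 10.9 in siBRD9, and was called lower in siGPD1L (-1.12 ± 0.08) and siBRD9 (-0.92 ± 0.09). LINC00511, an RNA described in several carcinomas, was also called lower in siGPD1L (-0.90 ± 0.06) and siBRD9 (-0.70 ± 0.06), and changed by -0.12 ± 0.05 in siGABPA.

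**Figure D4:**
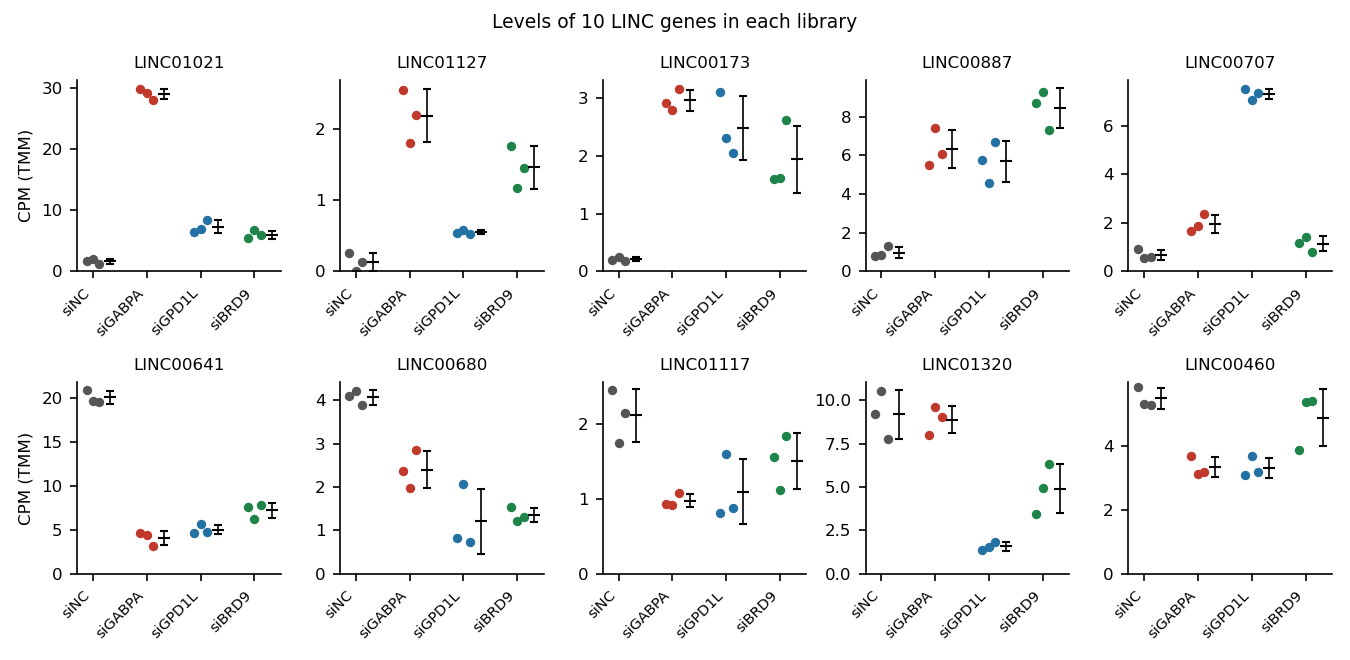
Level of 10 LINC genes in each library, in CPM scaled with TMM, with each point for a library and the bar for the mean ± SD of the 3 libraries of a group. LINC01021 reaches 28.1 to 29.8 in siGABPA, LINC00707 7.06 to 7.49 in siGPD1L, and LINC00641 lies at 19.6 to 20.9 in siNC and below 8 elsewhere.

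LINC01426 (chr21:34745757-34784886, 2915 bases from RUNX1, a hematopoietic and epithelial transcription factor gene) was called higher in all comparisons with siNC. It was at 0.512, 0.350 and 0.447 CPM in siNC and 0.963, 1.06 and 0.899 in siGABPA, whereas siGPD1L had 2.12, 2.55 and 2.11 and siBRD9 1.86, 2.28 and 1.71. The groups were ordered siNC, siGABPA and then siBRD9 and siGPD1L, which overlapped each other. The log2 fold changes were 1.14 ± 0.32, 2.36 ± 0.28 and 2.15 ± 0.30, and those of RUNX1 were 0.20 ± 0.04, 0.64 ± 0.04 and 0.57 ± 0.04, of which only that in siGPD1L was called. At its level in siNC, LINC01426 had to be higher elsewhere to be chosen, so nothing is read from its calls against siNC.

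In siBRD9 against siNC, among the called LINC genes with a mean of at least 30 counts over the 6 libraries and no overlap, the largest increases after LINC00887 were those of LINC00702, LINC01021, LINC00886 and LINC01273. With means under 30 counts, LINC01127 (3.47) and LINC00173 (3.18) were above LINC00887, and LINC01293 (2.83), LINC00622 (2.28) and LINC01426 (2.15) above LINC00702. Those with means under 30 counts had to be higher outside siNC to be chosen, so nothing is read from their increases. LINC00702 was at 1.13, 1.20 and 0.893 CPM in siNC and at 4.28, 4.05 and 3.51 in siBRD9 (1.90 ± 0.21), with 2.11 ± 0.19 in siGABPA and 2.13 ± 0.19 in siGPD1L. LINC00886 was at 2.15, 1.80 and 3.13 CPM in siNC and at 8.82, 8.36 and 7.39 in siBRD9 (1.79 ± 0.16), with 1.82 ± 0.16 and 1.94 ± 0.16 in the other groups. LINC01273 was at 0.819, 1.05 and 1.12 CPM in siNC and at 4.21, 2.43 and 3.33 in siBRD9 (1.77 ± 0.24), with 2.10 ± 0.21 and 1.92 ± 0.22. For all 3 genes the knockdown groups overlapped one another and lay above siNC. CEBPB, the transcription factor gene 14063 bases from LINC01273 on the same strand, was called higher as well, by 0.92 ± 0.05, 1.05 ± 0.05 and 1.002 ± 0.05.

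Of the 11 LINC genes called lower in siBRD9, those with the 5 largest decreases by the same limits were LINC00680, LINC00641, LINC01111, LINC01320 and LINC00893. Below the limit of 30 counts, LINC00607 (-2.01) and LINC00235 (-1.07) had decreases of like size. LINC00893 was at 1.74, 1.90 and 1.70 CPM in siNC and 0.895, 0.861 and 1.31 in siBRD9 (-0.79 ± 0.26, edgeR FDR 0.0105), and was not called in siGABPA or siGPD1L. Without siBRD9 replicate 1 its change was -0.69 with an FDR of 0.0512 and it was no longer called.

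Some LINC genes separated siGABPA from siBRD9. LINC01560 (chrX:47483571-47484823), which starts 625 bases from the zinc finger gene ZNF41 on the opposite strand, was at 1.48, 1.20 and 1.70 CPM in siNC and 4.51, 3.68 and 4.78 in siGABPA, and at 2.09, 1.49 and 1.59 in siGPD1L and 1.13, 1.01 and 1.17 in siBRD9. Only the siGABPA libraries all stood above siNC (1.54 ± 0.19), and siGABPA was above siBRD9 by 1.95 ± 0.19. ZNF41 moved the other way in siGABPA (-0.73 ± 0.10, called lower), with -0.33 ± 0.10 and -0.58 ± 0.12, not called, in the other groups.

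LINC01023 showed a like pattern at fewer counts, with 21, 15 and 19 counts in siNC and 58, 42 and 57 in siGABPA (1.03 ± 0.25), and was above siBRD9 by 1.498 ± 0.28. LINC00294 was at 6.14, 5.31 and 4.91 CPM in siNC and 5.47, 4.78 and 5.86 in siGABPA, with 9.40, 7.64 and 9.62 in siGPD1L and 11.3, 10.995 and 7.48 in siBRD9. It was not called in siGABPA (-0.03 ± 0.13) and was called higher in siGPD1L (0.70 ± 0.12) and siBRD9 (0.89 ± 0.15). Its body overlaps TCP11L1. LINC00501 was called higher in siGABPA (1.63 ± 0.20) and siBRD9 (1.37 ± 0.20) and missed the limit in siGPD1L (0.54 ± 0.23), and siGPD1L was below siBRD9 by -0.83 ± 0.17.

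RefSeq lists 8 of the LINC genes as protein-coding. They are SMIM30 (LINC00998), NBDY (LINC01420), MTLN (LINC00116), SMIM26 (LINC00493), BRD3OS (LINC00094), LASP1NB (LINC00672), C10orf143 (LINC00959) and C2orf92 (LINC01125). In siGABPA 2 of the 8 were called higher, with a median log2 fold change over the 8 of -0.10, in siGPD1L 2 were higher and 1 lower, and in siBRD9 2 were higher. Of all genes tested, 21.3%, 20.4% and 16.7% were called higher, so 2 of 8 is near the background. SMIM30, a microprotein of internal membranes, was at 118, 112 and 115 CPM in siNC and 106, 107 and 111 in siGABPA (-0.10 ± 0.04). NBDY, a microprotein of mRNA decapping bodies, was at 34.8, 34.2 and 33.9 CPM in siNC and 28.97, 28.9 and 27.7 in siGABPA (-0.28 ± 0.05). MTLN, the mitochondrial microprotein mitoregulin, changed by -0.09 ± 0.07, -0.23 ± 0.09 and -0.27 ± 0.08, and SMIM26 by -0.25 ± 0.16, 0.33 ± 0.14 and 0.13 ± 0.15. None of these 4 was called against siNC.

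The genes called higher among the 8 had fewer counts. LINC00959 was at 1.28, 1.35 and 0.849 CPM in siNC and 3.27, 4.17 and 3.92 in siGABPA (1.70 ± 0.21), with 0.89 ± 0.23 in siGPD1L and 1.22 ± 0.26 in siBRD9. LINC00672 was called higher by 1.22 ± 0.22, 0.83 ± 0.24 and 0.82 ± 0.26. LINC01125 was called lower in siGPD1L alone (-0.65 ± 0.25), with -0.30 ± 0.25 in siGABPA and -0.50 ± 0.26 in siBRD9.

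The remaining LINC genes with a described role are given next. LINC00152 (CYTOR) was at 11.7, 9.31 and 9.69 CPM in siNC and 14.2, 14.6 and 13.6 in siGABPA, whereas siGPD1L had 15.3, 15.4 and 16.1 and siBRD9 11.9, 12.7 and 12.5. It was called higher in siGPD1L (0.61 ± 0.09) and not in siGABPA (0.45 ± 0.09) or siBRD9 (0.28 ± 0.10), and the siGPD1L call was lost without siNC replicate 2 or 3. Its near-identical copy MIR4435-2HG may share its reads, and changed by 0.72, 0.86 and 0.67. LINC00963 was at 129, 125 and 134 CPM in siNC and at 183, 184 and 182 in siBRD9 (0.52 ± 0.04, under the fold limit). LINC00662 (0.58 ± 0.07), LINC00467 (0.48 ± 0.07) and LINC01578 (CHASERR, 0.20 ± 0.07) were not called in siGABPA.

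Neighbouring LINC genes were also set beside each other. There were 7 pairs of members within 100000 bases, all on opposite strands, and the annotated starts of 3 of them lay within 1000 bases of each other, the pairs described here. In the other 4, the starts were 2384 (LINC01128 and LINC00115), 24201 (LINC01443 and LINC01444), 28622 (LINC01270 and LINC01271) and 46141 bases (LINC00943 and LINC00944) apart, with overlapping bodies. Of these, LINC00115, LINC00943 and LINC01443 were called higher in siGABPA (1.39, 0.80 and 0.91), and their partners (-0.15, -0.22 and -0.00053) and both genes of the LINC01270 pair (0.45 and 0.26) were not called. LINC00526 was at 0.768, 0.951 and 0.447 CPM in siNC and 2.92, 2.72 and 2.66 in siGABPA, and at 1.73, 1.56 and 1.44 in siGPD1L and 1.79, 1.57 and 1.76 in siBRD9, and was called higher in all 3 (1.94 ± 0.25, 1.14 ± 0.29 and 1.27 ± 0.29). LINC00667, its partner, was at 29.6, 29.4 and 29.3 CPM in siNC and 25.4, 25.3 and 24.1 in siGABPA, with 21.1, 19.3 and 22.6 in siGPD1L and 20.4, 19.96 and 21.7 in siBRD9. Its log2 fold changes were -0.25 ± 0.06, -0.49 ± 0.07 and -0.50 ± 0.06, with no overlap with siNC, and none passed the fold limit. At its level in siNC, LINC00526 had to be higher elsewhere to be chosen, so nothing is read from its calls against siNC. The partners had values of opposite sign with the same ETS letters between them, and nothing is read from this contrast. Their annotated bodies overlap in GENCODE, with starts 772 bases apart, so without the strand setting some reads may count for either.

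LINC01116 and LINC01117, beside the HOXD cluster on chromosome 2, have annotated starts 221 bases apart on opposite strands. Their annotated bodies overlap, so without the strand setting some reads may count for either. LINC01116 was at 42.5, 41.2 and 40.9 CPM in siNC and 26.4, 24.2 and 26.5 in siGABPA, whereas siGPD1L had 37.5, 38.8 and 36.3 and siBRD9 41.1, 43.0 and 44.3. It was called lower only in siGABPA (-0.71 ± 0.05), with -0.15 ± 0.05 in siGPD1L and 0.05 ± 0.05 in siBRD9, and siGABPA was below siBRD9 by -0.74 ± 0.06. LINC01117, far less abundant at 2.46, 1.75 and 2.14 CPM in siNC, was called lower in siGABPA (-1.13 ± 0.23) and siGPD1L (-0.94 ± 0.26), and not in siBRD9 (-0.46 ± 0.23).

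LINC00882 and LINC00883 (DUBR) start 51 bases apart on chromosome 3. LINC00883 was at 3.99, 5.31 and 5.45 CPM in siNC and 9.49, 8.42 and 9.78 in siGABPA, and at 4.81, 5.46 and 4.65 in siGPD1L and 4.05, 3.75 and 4.14 in siBRD9. It was called higher only in siGABPA (0.89 ± 0.12), with 0.01 ± 0.14 and -0.29 ± 0.15 in the other groups, and was above siGPD1L by 0.89 ± 0.11 and above siBRD9 by 1.20 ± 0.12. LINC00882 was called higher in siGABPA (1.06 ± 0.29) and siBRD9 (0.76 ± 0.31), and not in siGPD1L (0.42 ± 0.32), from 11, 11 and 16 counts in siNC. With these counts LINC00882 had to be higher outside siNC to be chosen, so nothing is read from its calls against siNC.

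**Figure D5:**
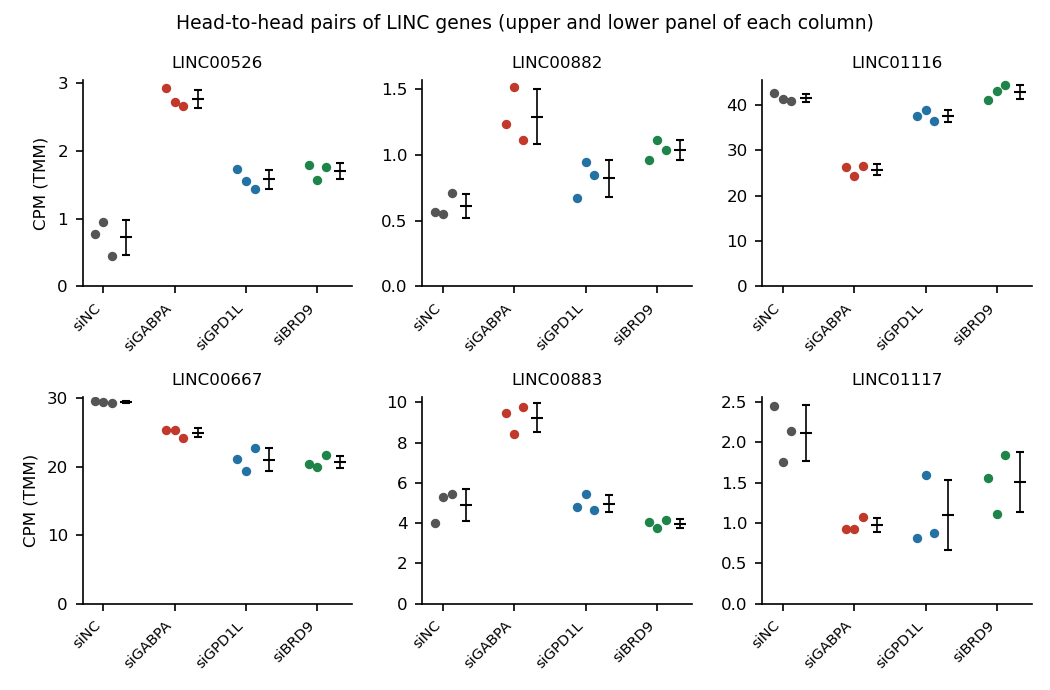
Level of 3 head-to-head pairs of LINC genes in each library, in CPM scaled with TMM, with the partners above each other in a column, each point for a library and the bar for the mean ± SD of 3 libraries. LINC00526 rises from 0.447 to 0.951 in siNC to 2.66 to 2.92 in siGABPA, while LINC00667 below it lies at 29.3 to 29.6 in siNC and 24.1 to 25.4 in siGABPA.

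The calls were also counted by position. Of the LINC genes that overlap a protein-coding gene, 14 of 27 were called higher in siGABPA, and of those that do not, 54 of 114 were called higher and 8 lower. Of the 16 with a divergent protein-coding start within 1000 bases, 7 were called higher, as were 9 of the 17 single-exon genes tested. Of all genes tested in siGABPA, 21.3% were called higher and 15.2% lower, and no difference between these positions was tested. The 9 windows with the ETS letters fell on 3 of the 54 genes called higher in siGABPA that had a window, 0 of the 7 called lower and 6 of the 48 not called.

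The nearest protein-coding gene of each LINC gene was set beside it. Among 106 pairs with both genes tested in siGABPA against siNC, Pearson's r of the log2 fold changes across pairs was 0.035 and Spearman's rho 0.024. Across 106 pairs in siGPD1L these were 0.169 and 0.093, and across 107 pairs in siBRD9 0.181 and 0.160. For the 37 pairs with a gap of 1 to 10000 bases, r was 0.113, 0.167 and 0.386 in the 3 groups. For the 19 overlapping pairs, r was -0.033, -0.111 and -0.023 against siNC. Between knockdowns it was 0.642 in siGABPA against siGPD1L, 0.548 in siGABPA against siBRD9 and 0.335 in siGPD1L against siBRD9. The part of shared reads in these values was not tested. These values are descriptions across genes of the same libraries, and some pairs share a neighbour. Of the distinct neighbours, 11 were called higher and 13 lower of 101 in siGABPA, 13 and 15 of 101 in siGPD1L, and 14 and 10 of 102 in siBRD9. Their median log2 fold changes were -0.04, -0.05 and 0.005. Of all genes tested, 21.3% and 15.2%, 20.4% and 15.5%, and 16.7% and 11.5% were called higher and lower.

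A list of 31 long noncoding RNAs with names of their own was set beside the LINC genes, of which 22 were tested. In siGABPA 10 were called higher and 3 lower, in siGPD1L 7 and 4, and in siBRD9 6 of 21 and 3. Of all genes, 21.3%, 20.4% and 16.7% were called higher and 15.2%, 15.5% and 11.5% lower, so the counts of lower calls are near the background. NEAT1, the scaffold of paraspeckles, was at 160, 177 and 158 CPM in siNC and 614, 540 and 475 in siGABPA, with 231, 247 and 195 in siGPD1L and 169, 177 and 208 in siBRD9. Only in siGABPA was it called higher than siNC (1.70 ± 0.07), and it was also higher there than in siGPD1L (1.28 ± 0.07) and siBRD9 (1.55 ± 0.07). HOTAIRM1, an RNA of the HOXA cluster, was called higher in all 3 groups (1.65 ± 0.08, 1.44 ± 0.09 and 0.81 ± 0.10). DLEU2, host of the miR-15a and miR-16-1 hairpins, was called lower in all 3 (-1.75 ± 0.14, -1.98 ± 0.14 and -1.64 ± 0.13), as were MIR22HG and MIR17HG.

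Genes of nuclear RNA decay, which removes many noncoding transcripts, were also listed, and 25 of them were tested. In siGABPA 1 was called higher and 6 lower, with a median log2 fold change of -0.30, in siGPD1L 1 and 3 with a median of -0.17, and in siBRD9 4 were called lower with a median of -0.23. Of all genes tested, 15.2%, 15.5% and 11.5% were called lower, so the counts of lower calls in siGPD1L and siBRD9 are near the background. EXOSC3, a subunit of the RNA exosome, was at 18.8, 20.5 and 23.2 CPM in siNC and 6.95, 9.27 and 7.91 in siGABPA, whereas siGPD1L had 15.7, 17.7 and 14.7 and siBRD9 13.1, 13.8 and 15.6. It was called lower only in siGABPA (-1.39 ± 0.10), and was lower there than in siGPD1L (-0.998 ± 0.10) and siBRD9 (-0.82 ± 0.10). SKIV2L2, the exosome helicase also called MTR4, was lower in siGABPA (-0.77 ± 0.06) and changed by -0.13 ± 0.05 and -0.23 ± 0.06 in the others. NCBP1 of the cap-binding complex (-1.005 ± 0.04, -1.02 ± 0.04 and -0.92 ± 0.04), SRRT (-1.13 ± 0.03, -1.20 ± 0.04 and -1.04 ± 0.04) and the exosome cofactor MPHOSPH6 (-0.98 ± 0.09, -0.73 ± 0.09 and -0.82 ± 0.10) were lower in all 3. ZFC3H1 was called higher in siGABPA (0.62 ± 0.04) and siGPD1L (0.66 ± 0.04). The part of these genes in the levels of the LINC genes was not tested.

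At the limit of the rule, the genes just inside were LINC01293 with 202 counts over the 12 libraries, LINC01611 with 204 and LINC01119 with 216. Those just outside were LINC01036 with 199, LINC00240 with 196 and LINC01291 with 191. LINC01293 had 3, 2 and 4 counts in siNC and 37, 20 and 20 in siBRD9, and LINC01291, outside the limit, had 2, 1 and 1 counts in siNC and 35, 21 and 14 in siBRD9. Of the LINC genes below 200 counts, 27 were tested in siGABPA against siNC, and 9 were called higher and 2 lower. In siGPD1L 23 were tested with 6 higher and 5 lower, and in siBRD9 15 with 3 higher and 5 lower. Over all genes tested, the shares called higher were 21.3%, 20.4% and 16.7% in the same order of groups, and those called lower 15.2%, 15.5% and 11.5%. The median log2 fold changes of these genes below the limit were 0.62, 0.39 and -0.25. The limit is set on the same counts, so a gene that rose could pass it and a gene that fell could stay below, and nothing is read from the difference between the sides.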

How the data were processed

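Total RNA had been extracted with Trizol and made into libraries with a NEBNext Ultra kit. The deposited table holds raw counts of reads per gene, made by the authors and not normalized. The submitters' processing notes list HISAT2, HTSeq, DESeq2 and hg38, while the paper's methods name featureCounts v1.5.0-p3 for the counting; the strand setting was not given in the sources used here. No column was left out. Each of the 6 comparisons was fitted with its own 6 libraries in edgeR 4.0.16 (R 4.3.3): filterByExpr, TMM, the quasi-likelihood test and Benjamini-Hochberg adjustment over all genes tested. The study's limits (FDR below 0.05, change over 1.5-fold) set the calls. Total counts per library ranged from 19499090 to 29999290. Replicate libraries differed by more than sampling noise, and all were kept. Gene types and positions came from GENCODE release 29, and names and start windows from RefSeq (GRCh38.p14).

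The genes named were the 3 targets, the 10 LINC genes highest per length, in each comparison with siNC up to 5 higher and 5 lower calls with the largest fold change (mean of at least 30 counts, no overlap), up to 3 each between knockdowns, members with a known product or role, those at the limit, and nearest protein-coding genes. LINC00526, LINC00667, LINC00882, LINC00883, LINC00959, LINC00672, LINC01125, LINC00235, LINC00607, LINC00622, LINC00920, the genes of the 4 other member pairs and the named genes of the lists were chosen after their values were seen. The members and lists were chosen with earlier results of these data known. The alternatives tried were RLE scaling, total counts only, DESeq2 1.42.0, voom in limma 3.58.1, other filters, all 12 libraries in 1 fit, FDR alone, glmTreat, a replicate block, other limits of the rule and each library left out.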

Additional observations from a re-analysis of the deposited data

How the results depend on the processing

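RLE scaling, voom, DESeq2, no filter, at least 10 counts in every library and all 12 libraries in 1 fit left each count of LINC genes called within 1.5 times its value. The numbers on the libraries did not pair them: correlations of same-numbered libraries were -0.080 to 0.029 over 18 pairs, and a replicate block gave 69 higher and 8 lower in siGABPA, 49 higher and 15 lower in siGPD1L, 38 higher and 11 lower in siBRD9, and 39 and 14, 43 and 7, and 8 and 5 between the knockdowns. With FDR alone, 19, 29 and 21 LINC genes were lower in siGABPA, siGPD1L and siBRD9, 61 were higher in siGABPA than in siGPD1L, 17 lower in siGABPA than in siBRD9, and 22 higher and 19 lower in siGPD1L than in siBRD9. With total counts only, 3 were lower in siGABPA. With glmTreat, which tests for a change over 1.5-fold, 4 were lower in siGABPA, 8 lower in siGPD1L, and 24 higher and 6 lower in siBRD9, with 17 and 6, 15 and 1, and 3 and 1 between the knockdowns. With a limit of 1000 counts (77 genes), the counts were 30 and 4, 23 and 9, 17 and 6, 18 and 6, 19 and 4, and 3 and 2. Fewer genes were tested, and the share called could move as well, with 30 of 77 higher in siGABPA against 70 of 143 in the main setting.

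Leaving out each library gave 66 to 71 higher and 7 to 9 lower in siGABPA, 46 to 53 and 13 to 15 in siGPD1L and 35 to 43 and 9 to 12 in siBRD9. Between the knockdowns they were 36 to 39 and 11 to 14 for siGABPA against siGPD1L, 39 to 43 and 7 to 9 against siBRD9, and 5 to 9 and 5 to 8 for siGPD1L against siBRD9, with 5 higher without siGPD1L replicate 1 and 8 lower without siGPD1L replicate 2. Of 827 values of 104 named results under the other settings, 814 kept their call, 5 lost it, 8 gained it and none reversed. Of 624 with a library left out, 619 kept it, 3 lost it and 2 gained it. A group of 3 libraries limits the precision at low levels: a LINC gene near 1 CPM has about 20 to 30 counts per library.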
